A study of Mus musculus with 8 samples.

Results

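The endocannabinoid genes described here are 7 in number: Cnr1, which encodes the CB1 cannabinoid receptor, and 6 genes of the enzymes that make or break down its lipid ligands (Dagla, Daglb, Mgll, Abhd6, Napepld and Faah). They were chosen by name, and all 7 were found among the 32285 genes of the deposited count matrices. The study took nuclei from the striatum of 32 mice, 12 weeks old, and read both the RNA and the accessible chromatin of each nucleus (10x Genomics Multiome). The mice came from 8 inbred strains with 4 mice each. Of these, 129S1/SvImJ, A/J, C57BL/6, NOD/ShiLtJ and NZO/HlLtJ are classical laboratory strains, and CAST/EiJ, PWK/PhJ and WSB/EiJ are wild-derived. No treatment is given in the labels. Each of 4 batches was a pool of nuclei from 1 mouse of every strain, loaded above the usual density on the 10x chip, so that a mouse is named here by its strain and batch. Every batch held 4 males and 4 females per the labels, and sex was not assigned to single mice here. The C57BL/6 mice are written C57BL/6J in the labels and C57BL/6NJ in the deposited table, and the NZO mice NZO/H1LtJ and NZO/HlLtJ. The question was how the levels of the 7 genes vary between cell types of the striatum and between genetic backgrounds.

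CB1 is a receptor coupled to inhibitory G proteins that sits largely on axon terminals, where it lowers transmitter release. Its ligand 2-arachidonoylglycerol (2-AG) is made from diacylglycerol by the lipases encoded by Dagla and Daglb and is hydrolysed mainly by monoacylglycerol lipase (Mgll) and in part by ABHD6. The other ligand, anandamide, is released from a phospholipid precursor by NAPE-PLD (Napepld) and by other routes, and it is hydrolysed by fatty acid amide hydrolase (Faah). In the striatum, projection neurons of the direct pathway (marked by the dopamine receptor gene Drd1) and of the indirect pathway (marked by Drd2) both make CB1, and endocannabinoids take part in the depression of synapses there.

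The authors' filters left 55672 annotated nuclei in 18 clusters, 944 to 4416 per mouse (median 1613), with a median of 4329 counts of unique molecular identifiers (UMIs) per nucleus. Batch 3 was the shallowest, with a median of 3232 UMIs against 4593 to 4931 in the others. Of the 54141 barcode sequences, 1517 (2.80%) occurred in more than 1 batch, and nuclei were therefore matched by batch and barcode. Counts were summed per mouse and cluster. The summed libraries held 1710451 to 9416806 counts in Drd1+ neurons, and the smallest had 165465 counts in oligodendrocytes and 38252 in astrocytes. Most markers peaked in the cluster of the matching name, with Tac1 highest in the second Drd1+ cluster, Rgs5 in endothelium rather than mural cells, Pdgfra in fibroblasts, Cck in the second Slc17a7+ cluster, Th and the neuroblast markers in unnamed clusters and Lamp5, listed for interneurons, in Drd1+ neurons. Levels are given as counts per 1000000 (CPM), on plain library totals where clusters are compared and on totals scaled by TMM (trimmed mean of M values) where strains are compared. CPM are used here to compare 1 gene across samples and not genes with each other.

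The start regions of 3 of the 7 genes (Cnr1, Mgll and Faah) are shown to place them in the genome and beside the deposited list of 291715 accessible regions. Each is 250 bases before to 50 bases after a transcription start in RefSeq (GRCm38.p6), written 5′ to 3′ on the strand of the gene. Capitals mark matches on either strand to GGGCGG (GC box) or CACGTG (E-box). The cAMP response element TGACGTCA was searched too, as was the core of the TATA box, which was spelled TATAAA, and neither occurred in these 3 windows. Of the 32851 promoters in the RefSeq table, 35.7% hold a GC box, 7.15% an E-box, 1.79% the cAMP response element and 13.6% a TATA box.
Cnr1, chr4:33924014-33924313, plus strand: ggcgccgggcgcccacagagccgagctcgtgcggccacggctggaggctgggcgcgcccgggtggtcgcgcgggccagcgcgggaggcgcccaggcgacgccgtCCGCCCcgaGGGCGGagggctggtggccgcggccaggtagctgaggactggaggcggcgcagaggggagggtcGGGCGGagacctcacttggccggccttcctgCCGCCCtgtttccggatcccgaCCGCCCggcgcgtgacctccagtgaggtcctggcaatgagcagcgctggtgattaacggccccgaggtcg
Mgll, chr6:88724162-88724461, plus strand: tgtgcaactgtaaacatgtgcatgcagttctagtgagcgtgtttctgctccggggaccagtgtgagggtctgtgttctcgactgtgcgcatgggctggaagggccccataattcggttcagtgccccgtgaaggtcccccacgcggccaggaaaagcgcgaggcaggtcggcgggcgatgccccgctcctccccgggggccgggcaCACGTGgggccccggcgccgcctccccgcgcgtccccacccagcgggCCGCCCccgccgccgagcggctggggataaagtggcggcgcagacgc
Faah, chr4:116017875-116018174, minus strand: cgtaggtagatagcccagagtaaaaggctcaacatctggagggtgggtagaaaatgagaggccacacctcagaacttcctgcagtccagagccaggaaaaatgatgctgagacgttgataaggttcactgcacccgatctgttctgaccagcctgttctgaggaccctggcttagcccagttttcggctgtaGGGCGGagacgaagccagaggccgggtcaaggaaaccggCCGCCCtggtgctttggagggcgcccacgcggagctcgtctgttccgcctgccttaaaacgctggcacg
The Cnr1 window holds 5 GC boxes and 40 CG dinucleotides, more than 96.1% of the promoters in the table, and it lies wholly under an accessible region (chr4:33923425-33924424). The Mgll window shares 240 bases with an accessible region and holds 1 GC box and 1 E-box. The Faah window holds 2 GC boxes, none in the 16 bases that it shares with a region. For comparison, 53.1% of all promoters in the table touch an accessible region. RefSeq lists 3 Cnr1 starts and 2 Mgll starts in this table, and the first of each is shown. The RefSeq spans of Faah (5′ end 116018837) and Cnr1 (5′ end 33923171) start upstream of the windows shown. The second Cnr1 window (chr4:33924394-33924693) shares 31 bases with the same region and holds 1 E-box, and the third (chr4:33926130-33926429) lies under no region and holds 5 CG dinucleotides. The second Mgll window (chr6:88724454-88724753) lies wholly under a region. Of the genes whose windows are not shown, those of Daglb and Napepld lie wholly under a region, and the windows of Abhd6 lie under none. There is 1 list for all batches, cell types and strains, so it says nothing of differences between them, and a motif match is a description and not a binding site.

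Cnr1 lies on chromosome 4 (33923171 to 33948831). Its level was highest in Drd1+ neurons, at 285 ± 83.7 CPM (SD, n = 32 mice, 133 to 458), and in Drd2+ neurons, at 272 ± 74.1 CPM (n = 32, 119.95 to 420.5). These clusters held 52.5% and 39.4% of all Cnr1 counts. Then came Nxph1+ interneurons at 159 ± 74.6 CPM, and the level in Drd2+ neurons was above theirs in 28 of 32 mice. Mural cells (149.98 ± 135 CPM, n = 20), the second Drd1+ cluster (144 ± 63.4, n = 32), endothelium (123 ± 93.3, n = 29) and ependyma (120.2 ± 80.3, n = 12) followed, with neighbours in this order closer than their spread. The mural cluster was also second highest for the projection neuron markers Penk (503 CPM), Adora2a (82.0) and Pdyn (25.1). It was neither highest nor second for the other listed markers of these neurons, Drd1, Tac1 and Drd2. Second for those were the second Drd1+ cluster, Drd1+ neurons and Chat+ interneurons. The part of projection neuron RNA in the mural Cnr1 level was not tested. Astrocytes (42.3 ± 14.6), macrophages (27.0 ± 19.9), oligodendrocytes (24.6 ± 8.84) and Slc17a7+ neurons (22.4 ± 13.3, n = 20) were at the low end.

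At least 1 Cnr1 UMI was seen in 60.8% of Drd1+ nuclei (median 6505 UMIs) and in 3.75% of macrophage nuclei (median 1432 UMIs), a type that should have little of it. With every nucleus thinned to 1000 UMIs, the share was 21.3 ± 5.19% and 2.32 ± 1.81% (n = 32 mice each). This left out the 10 Drd1+ and 379 macrophage nuclei with fewer UMIs. Free RNA can give a low share of nuclei with a UMI in any type, and its part in the low Cnr1 values of macrophages and oligodendrocytes was not tested.

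The 2-AG synthesis genes differed in where they were highest. Among clusters with 3 or more mice, Dagla (chromosome 19, 10245265 to 10304877) was highest in Slc17a7+ neurons, at 65.2 ± 20.5 CPM. Macrophages had 54.2 ± 23.8 and Drd1+ neurons 44.1 ± 7.56, and differences between neighbours in the full order were within their spread. Dagla was lowest among these clusters in oligodendrocytes, at 4.90 ± 3.01 CPM. Daglb (chromosome 5, 143464484 to 143504442) was at 202 ± 69.8 CPM in macrophages (n = 32) and at 51.0 CPM or below in every other cluster with 3 or more mice, with 31.9 CPM in Drd1+ and 28.4 in Drd2+ neurons. After thinning to 1000 UMIs, 17.3 ± 5.70% of macrophage nuclei and 3.20 ± 1.02% of Drd1+ nuclei had a Daglb UMI.

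Of the 2-AG hydrolases, Mgll (chromosome 6, 88724412 to 88828360) was highest in astrocytes, at 264 ± 75.6 CPM. Among clusters with 3 or more mice the next was Polydendrocyte/Oligodendrocyte (168 ± 85.2, n = 27). Astrocytes were above it in 22 of 27 mice, with a mean difference (103 CPM) within its SD over mice (120). Macrophages (160.0 ± 54.3), endothelium (148 ± 69.7) and Slc17a7+ neurons (146) followed, while Drd2+ and Drd1+ neurons had 98.8 ± 26.5 and 86.5 ± 24.7 CPM. Abhd6 (chromosome 14, 8002888 to 8056773) was at 118 ± 42.2 CPM in astrocytes and 114 ± 45.9 in macrophages, which did not differ beyond their spread. Drd1+ neurons had 58.4 ± 12.8, Drd2+ neurons 45.9 ± 11.4 and oligodendrocytes 37.2 CPM of Abhd6.

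The anandamide genes were low in projection neurons. Napepld (chromosome 5, 21662901 to 21701622) reached 67.9 ± 18.0 CPM in oligodendrocytes, which held 53.9% of its counts, and these were above macrophages (25.6) in 28 of 32 mice. In Drd1+ and Drd2+ neurons Napepld was at 3.40 ± 1.61 and 2.46 ± 1.51 CPM, from 355 and 206 counts over all mice. Faah (chromosome 4, 115996668 to 116018837) was at 74.0 ± 33.8 CPM in the second Slc17a7+ cluster (n = 16), 50.9 ± 22.8 in Slc17a7+ neurons and 46.7 ± 42.5 in oligodendrocytes. In oligodendrocytes the mice ran from 6.04 to 185 CPM, the widest spread of Faah in any cluster with 3 or more mice. Drd1+ neurons had 9.79 ± 3.47 and Drd2+ neurons 6.53 ± 3.22 CPM. The authors made the clusters from the expression of all genes, so all these levels are a description with no test. Several of the genes overlap others in RefSeq (Dagla with Gm30042, Mgll with Gm26588, Napepld with Gm51277 and Gm15719, and Abhd6 with Gm30244 and Gm41094). Whether strand was used in counting is not given in the sources used here, so reads of such pairs may not be told apart.

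**Figure D1:**
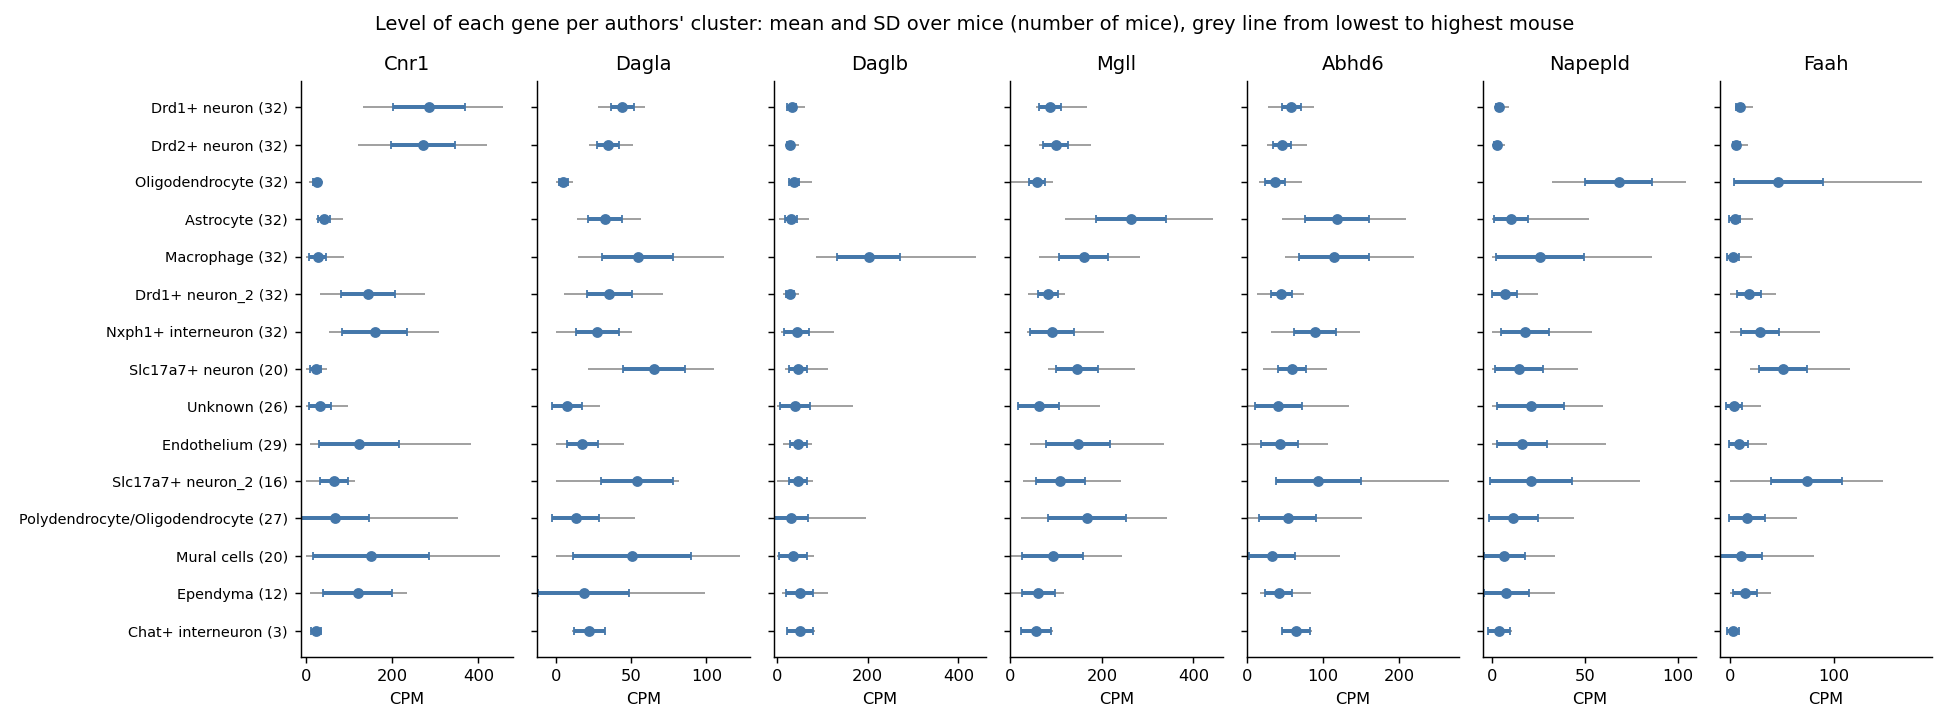
Level of each gene (CPM on plain totals, linear axis) in the 15 of the 18 clusters with at least 3 mice of 10 or more nuclei. Points are means over mice, thick bars the SD, grey lines run from the lowest to the highest mouse, and the number of mice stands beside the cluster name. Cnr1 peaks in the Drd1+ and Drd2+ neurons, Daglb in macrophages and Napepld in oligodendrocytes.

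Within the same mouse, Cnr1 was near equal in the 2 kinds of projection neuron. The log2 ratio of Drd2+ to Drd1+ neurons was -0.06 ± 0.12 (SD, n = 32), and 10 of 32 mice had the higher level in Drd2+ neurons. Mgll was higher in Drd2+ neurons in 26 of 32 mice (0.19 ± 0.21), while Abhd6, the other 2-AG hydrolase, was higher there in 4 of 32 (-0.34 ± 0.25). Dagla (-0.36 ± 0.26, 2 of 32 mice) and Faah (-0.56 ± 0.42, 4 of 32) were also lower in Drd2+ neurons in most mice. Daglb (-0.15 ± 0.23) and Napepld (-0.40 ± 0.57) were higher in Drd2+ neurons in 9 and 8 of 32 mice.

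Differences between strains were tested by edgeR's quasi-likelihood F test of the strain term (7 degrees of freedom, batch in the model) in the 9 clusters with at least 3 mice of every strain. P-values were adjusted by Benjamini-Hochberg over all genes of a cluster, with the threshold for a call set at 0.05. All 7 genes passed the filter on low counts in Drd1+ and Drd2+ neurons, and 6 were called in each, all but Napepld. Of all genes tested, 61.7% were called in Drd1+ and 55.9% in Drd2+ neurons, so a strain difference is common there and not particular to these genes. The median of the largest difference between strain means was 1.02 (log2) over the 7 genes and 0.65 over all genes in Drd1+ neurons, and 1.06 and 0.64 in Drd2+ neurons.

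In oligodendrocytes, 6 of the 7 passed the filter (not Dagla) and 3 were called (Faah, Napepld and Abhd6), against 34.8% of all genes. In astrocytes, 5 passed (not Faah or Napepld) and 2 were called (Mgll and Abhd6), against 21.5%. In endothelium, 3 passed (Cnr1, Mgll and Abhd6) and 1 was called (Mgll), against 3.23%. No gene of the 7 was called by edgeR in 4 further clusters. These were macrophages (Daglb, Mgll and Abhd6 passed, and 24.8% of all genes were called), the second Drd1+ cluster (Cnr1, Dagla, Mgll and Abhd6 passed, 17.3%), Nxph1+ interneurons (Cnr1, Mgll and Abhd6 passed, 1.53%) and Polydendrocyte/Oligodendrocyte (Cnr1 and Mgll passed, 1.24%). At an unadjusted p under 0.05 there were 2 in Nxph1+ interneurons (Cnr1 and Abhd6) and 0 in the other 3 clusters, and DESeq2 called 0 in all 4. With no expression filter, Napepld was also tested in macrophages and was called (edgeR adjusted p = 0.000104), against 6.7% of all genes in that fit.

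Each strain was then contrasted with the mean of the other 7 in the same fits. Since the strains share these comparisons, the contrasts of a gene are not independent of each other. In Drd1+ neurons, 22 of the 56 contrasts of the 7 genes were called, 11 higher and 11 lower, against 20.4% of all contrasts of all genes. In Drd2+ neurons it was 15 of 56, 9 higher and 6 lower, against 17.7%. Without batch 2 the latter count was 9. By strain, PWK/PhJ had the most calls, with 5 of the 7 genes in Drd1+ neurons (34.3% of all genes) and 4 in Drd2+ neurons (30.3%). In Drd1+ neurons, 2 of the 7 genes were called in CAST/EiJ and 3 in NZO/HlLtJ, where 32.8% and 19.7% of all genes were called. None of the 7 was called higher in C57BL/6 (8.01% of all genes) or NZO/HlLtJ (11%), or lower in CAST/EiJ (15.9%), NOD/ShiLtJ (6.48%) or WSB/EiJ (7.3%) there. In Drd2+ neurons none was called higher in NZO/HlLtJ (10.8%) or lower in 129S1/SvImJ (4.36%), CAST/EiJ (13.3%) or NOD/ShiLtJ (4.57%), and none in C57BL/6 in either direction (6.87% higher and 4.25% lower).

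**Figure D2:**
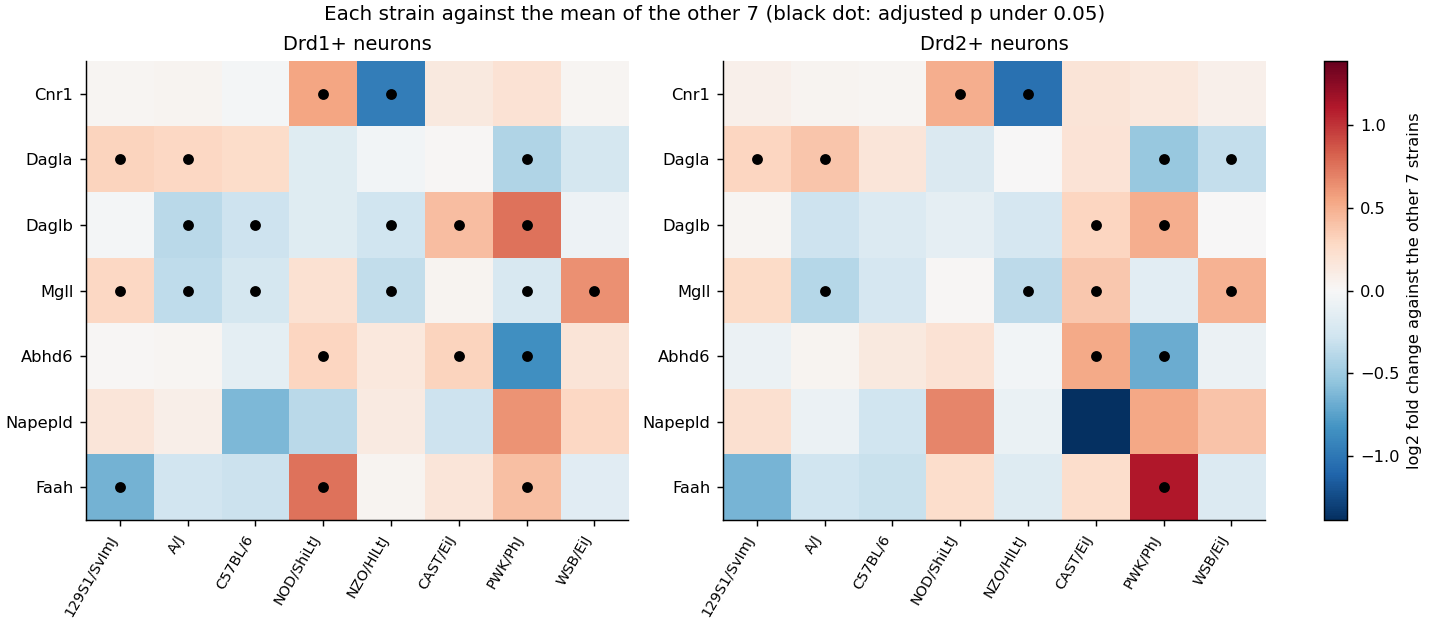
Log2 fold change (colour, linear scale) of each strain against the mean of the other 7 for each gene in Drd1+ (left) and Drd2+ neurons (right). A black dot marks an adjusted p under 0.05 (edgeR). Cnr1 was lower in NZO/HlLtJ and higher in NOD/ShiLtJ in both panels, and the pale-to-dark Napepld squares carry no dot.

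Cnr1 was lowest in NZO/HlLtJ and highest in NOD/ShiLtJ in both kinds of projection neuron. In Drd1+ neurons the NZO/HlLtJ mice of batches 1 to 4 had 139.7, 143, 127 and 215 CPM, and the other 28 mice ran from 162 to 467 with a median of 299.6. Thus 3 of the 4 NZO/HlLtJ mice lay below all others, and the mouse of batch 4 lay within their range. Against the other strains Cnr1 was lower in NZO/HlLtJ (log2 fold change -0.96 ± 0.21 SE, 1.94-fold lower; edgeR adjusted p = 0.00217, background of genes lower in this strain 8.74%). The difference had the same sign in 4 of 4 batches (log2 -1.27 to -0.31), and its adjusted p stayed at or under 0.0334 in the 10 alternatives.

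In Drd2+ neurons the NZO/HlLtJ mice had 145, 140.4, 116 and 168 CPM of Cnr1, and the other 28 mice ran from 167 to 427 with a median of 288. The groups met only at their edges, 1 NZO/HlLtJ mouse reaching above the lowest of the others, an A/J mouse. The change was -1.03 ± 0.18 (2.05-fold lower; edgeR adjusted p = 0.000181, background 7.72%), NZO/HlLtJ was the lowest strain in 4 of 4 batches, and the adjusted p was at most 0.00540 in the 10 alternatives.

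NOD/ShiLtJ mice had 346, 439, 428 and 337 CPM of Cnr1 in Drd1+ neurons, a mean of 387 ± 53.6, and 347, 372, 378 and 345 CPM in Drd2+ neurons, a mean of 360.4 ± 17.1. They lay in the upper part of the range of the other 28 mice, which reached 467 CPM in Drd1+ and 427 in Drd2+ neurons. Against the other strains the changes were 0.55 ± 0.18 (edgeR adjusted p = 0.0451, background of genes higher 9.4%) and 0.51 ± 0.15 (edgeR adjusted p = 0.0298, background 7.58%). The call in Drd1+ neurons was lost when any 1 batch was left out, and that in Drd2+ neurons when batch 2, 3 or 4 was. Without batch 2 the edgeR adjusted p was 0.257 and 0.143 (ranges over 10 alternatives 4.17e-17 to 0.257 and 1.10e-12 to 0.143).

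The other 6 strains had Cnr1 means of 277 to 319.9 CPM in Drd1+ and 270.5 to 298 in Drd2+ neurons, and none was called. Their mice could differ widely: PWK/PhJ had 467, 249, 368 and 196 CPM in Drd1+ neurons. The strain term of Cnr1 was called in Drd1+ neurons (F = 3.85, edgeR adjusted p = 0.0147) and lost when batch 1, 2 or 3 was left out (edgeR adjusted p up to 0.141; range over 10 alternatives 1.93e-48 to 0.141). In Drd2+ neurons it was called (F = 5.91, edgeR adjusted p = 0.00196) under all 10 alternatives. In oligodendrocytes, astrocytes, endothelium, Nxph1+ interneurons, Polydendrocyte/Oligodendrocyte and the second Drd1+ cluster Cnr1 passed the filter and was not called, with edgeR adjusted p from 0.281 to 0.858. In the second Drd1+ cluster it was called only without batch 4 (edgeR adjusted p = 0.0199; range over 10 alternatives 0.0199 to 0.725), and in endothelium only without the filter (edgeR adjusted p = 0.00234; range over 9 alternatives 0.00234 to 0.885).

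**Figure D3:**
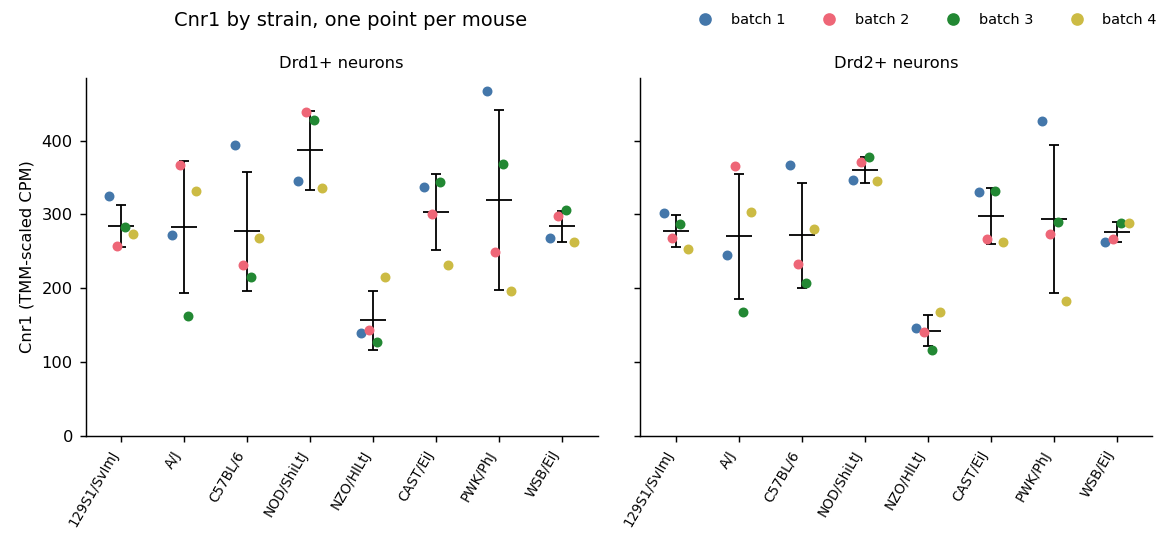
Cnr1 (TMM-scaled CPM, linear axis from 0) in Drd1+ neurons (left) and Drd2+ neurons (right), 1 point per mouse coloured by batch, with the strain mean (bar) and SD (whiskers, n = 4). The NZO/HlLtJ mean is the lowest in both panels. The mice of this strain sit between 116 and 215 CPM, and the highest of them in each panel lies within the range of the others. The NOD/ShiLtJ mice sit between 337 and 439 CPM.

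Genes known to differ by place within the striatum were set beside Cnr1. All 10 such genes varied with strain in Drd1+ neurons and 8 of 10 in Drd2+ neurons (not Kremen1 or Sema5b), against 61.7% and 55.9% of all genes. In NZO/HlLtJ Drd1+ neurons, Bach2 and Oprm1, which mark striosomes, were higher (0.62 and 0.48 on the log2 scale), as was Id4 (0.34), a matrix gene, against 11% of all genes. The other striosome genes, Kremen1 and Sema5b, were not called there (0.02 and -0.10, edgeR adjusted p = 0.948 and 0.669), nor were the other 5 of the 10. In Drd2+ neurons of the same strain Oprm1 (0.93), Id4 (0.46) and Crym (0.45), a ventromedial gene, were higher (10.8% of all genes), and the other 7 were not called. In NOD/ShiLtJ Drd1+ neurons Oprm1 (-0.99) and Sv2b (-0.49), a matrix gene, were lower (6.48% of all genes) and Wfs1 (0.58), a ventromedial gene, was higher (9.4%), with the other 7 not called. In NOD/ShiLtJ Drd2+ neurons Sv2b (-0.65), Crym (-0.64) and Epha4 (-0.18), another matrix gene, were lower (4.57%), with the other 7 not called. All contrasts given as higher or lower had edgeR adjusted p under the threshold.

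Over the 32 mice, log2 Cnr1 fell as Id4 rose (Drd1+ neurons r = -0.53, rho = -0.47; Drd2+ neurons r = -0.61, rho = -0.53). Permutation tests gave p = 0.0018 for r and 0.0074 for rho in Drd1+ neurons (0.012 and 0.0416 adjusted over 20 relations), and 0.00019 and 0.00226 in Drd2+ neurons (0.0038 and 0.0234 adjusted). Without the 2 mice farthest from the median, r was -0.44 and -0.54. Within single batches r ran from -0.88 to 0.21 in Drd1+ and from -0.80 to -0.18 in Drd2+ neurons. Crym was related to Cnr1 in the same direction (r = -0.45 and rho = -0.46 in Drd1+ neurons, r = -0.52 and rho = -0.53 in Drd2+ neurons). Its permutation p for r and rho were 0.0107 and 0.00831 in Drd1+ neurons (0.0426 and 0.0416 adjusted), and 0.00239 and 0.00234 in Drd2+ neurons (0.012 and 0.0234 adjusted). Its r was -0.42 and -0.47 without the 2 farthest mice and ran from -0.76 to 0.15 and from -0.88 to -0.22 within batches.

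For Oprm1 in Drd2+ neurons r was -0.55 (permutation p = 0.00104, 0.0104 adjusted; -0.45 without the 2 farthest mice) and rho -0.42 (permutation p = 0.0184, 0.0734 adjusted), and r ran from -0.89 to -0.24 within batches. The other relations did not pass the threshold. The largest r among them were in Drd1+ neurons, for Oprm1 (-0.43, permutation p = 0.0154, 0.0512 adjusted), Sema5b (0.34) and Epha4 (0.33). Over the 32 mice r was 0.22 and 0.24 for Gpr155, a dorsolateral gene, and -0.002 and -0.20 for Wfs1 in Drd1+ and Drd2+ neurons. Within batches it ran from -0.15 to 0.65 and from 0.13 to 0.51 for Gpr155, and from -0.51 to 0.54 and from -0.42 to -0.04 for Wfs1. Between deviations of mice from their strain means, which still hold the batch shared by mice of different strains, r was 0.70 in Drd1+ and 0.49 in Drd2+ neurons for Gpr155 and -0.65 and -0.67 for Wfs1, with no test. For Crym, the other ventromedial gene, r was -0.56 and -0.47. The dorsolateral list holds only 1 gene and the ventromedial list 2. Members of the striosome and matrix lists did not share 1 sign. In the striosome list r was 0.50 and 0.68 for Sema5b, 0.47 and 0.40 for Kremen1, 0.44 and 0.30 for Bach2, but -0.14 and -0.28 for Oprm1. In the matrix list it was 0.56 and 0.52 for Epha4, 0.21 and 0.07 for Sv2b, but -0.49 and -0.43 for Id4. Mice of 1 strain are not independent and strain is shared by both genes, so the p-values above treat as exchangeable mice that are not, and the part of position in the Cnr1 difference was not tested.

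Markers of other cell types in the projection neurons moved with some strains. The summed oligodendrocyte markers (Mog, Mobp and Mbp) ran from 998 CPM in 129S1/SvImJ to 1216 in PWK/PhJ in Drd1+ neurons and from 1065 to 1315 in the same strains in Drd2+ neurons. Astrocyte markers summed to 25.0 to 32.9 CPM in Drd1+ and 29.2 to 39.0 in Drd2+ neurons, and macrophage markers to 37.8 to 52.0 and 32.9 to 49.6. The 3 fibroblast markers summed to 47.0 ± 14.3 CPM in Drd1+ neurons of WSB/EiJ, the strain with the highest Mgll, and to 1.23 to 5.03 in the other 7 strains. In Drd2+ neurons the sums were 43.8 ± 21.3 and 0.806 to 4.55 CPM. The 8 markers of other interneurons, which include Lamp5 (59.9 CPM over all Drd1+ nuclei and highest there), summed to 163 ± 22.9 CPM in Drd1+ neurons of PWK/PhJ and 96.2 to 119 in the others, and to 155 ± 26.2 and 86.8 to 114 in Drd2+ neurons. Markers of eccentric projection neurons ran from 6.49 CPM in WSB/EiJ to 36.2 in NOD/ShiLtJ in Drd1+ neurons and from 7.68 in 129S1/SvImJ to 37.3 in CAST/EiJ in Drd2+ neurons. Cholinergic markers were highest in PWK/PhJ, at 11.4 ± 2.29 and 17.8 ± 2.38 CPM (others 1.68 to 7.98 and 3.77 to 11.7). Neuroblast markers were highest in NZO/HlLtJ, the strain with the lowest Cnr1, at 64.0 ± 3.23 and 73.6 ± 6.81 CPM (others 37.4 to 60.5 and 48.9 to 61.0). Precursor markers were highest in CAST/EiJ Drd1+ neurons (42.1 ± 9.42) and NZO/HlLtJ Drd2+ neurons (57.4 ± 19.1). The 3 indirect pathway markers summed to 94.8 to 152 CPM in Drd1+ neurons of 7 strains and to 211 ± 30.5 in A/J. In Drd2+ neurons the 3 direct pathway markers were highest in CAST/EiJ (79.4 ± 13.7 CPM) and next in PWK/PhJ (78.0 ± 13.0), with the other strains at 53.3 to 64.0. In Drd1+ neurons they were at 783 ± 176 CPM in NOD/ShiLtJ, the strain with the highest Cnr1, and at 523 to 691 in the others. The mitochondrial share of counts was highest in PWK/PhJ (1.58 ± 0.134% in Drd1+ and 1.68 ± 0.286% in Drd2+ neurons) and lowest in A/J (1.27 ± 0.183% and 1.33 ± 0.191%). The median UMIs per Drd1+ nucleus averaged 5825 in PWK/PhJ to 6811 in A/J. Drd1+ neurons made up 21.0 ± 1.32% of the nuclei of NOD/ShiLtJ mice and 26.9 to 30.6% in the other strains. The part of these in the strain differences was not tested.

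Dagla, the main 2-AG synthase of neurons, was lowest in PWK/PhJ. In Drd2+ neurons the PWK/PhJ mice had 24.8, 28.1, 21.1 and 23.9 CPM, against 24.4 to 51.7 (median 35.8) in the other 28. Of the others, 4 mice lay below the highest PWK/PhJ mouse, and the change was -0.53 ± 0.11 (1.44-fold lower; edgeR adjusted p = 0.000198, background 15.1%). In Drd1+ neurons the PWK/PhJ mice had 40.5, 28.4, 42.1 and 26.4 CPM, against 30.5 to 60.8 with wide overlap, a change of -0.42 ± 0.10 (edgeR adjusted p = 0.00126, background 17.3%). Both held under the 10 alternatives and in 4 of 4 batches.

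A/J was at the upper end for Dagla, with 39.2, 43.0, 45.8 and 43.5 CPM in Drd2+ neurons (mean 42.9 ± 2.74), within the range of the others. Its change there was 0.39 ± 0.09 (edgeR adjusted p = 0.00138, background 9.09%), and 0.29 in Drd1+ neurons (edgeR adjusted p = 0.0175, background 10.6%). 129S1/SvImJ, with 55.4, 43.9, 53.8 and 59.8 CPM in Drd1+ neurons, was higher by 0.31 there (edgeR adjusted p = 0.0184, background 7.72%) and by 0.30 in Drd2+ neurons (edgeR adjusted p = 0.0382, background 6.7%). WSB/EiJ, with 30.3, 24.4, 29.9 and 26.5 CPM in Drd2+ neurons, was lower there by -0.33 ± 0.10 (edgeR adjusted p = 0.0219, background 6.77%). Of these calls, only that of A/J in Drd2+ neurons was kept in all 10 alternatives. The others were lost in 2, 3, 6 and 2 of them in the order given. The batches whose removal ended them were 2 and 4 for A/J in Drd1+ neurons and for WSB/EiJ, and 1, 3 and 4 (Drd1+) and 1, 2 and 4 (Drd2+) for 129S1/SvImJ. Without batch 2, A/J in Drd1+ neurons had an edgeR adjusted p of 0.345 (range over 10 alternatives 0.00418 to 0.345). Without batch 4, the edgeR adjusted p was 0.172 and 0.349 for 129S1/SvImJ (ranges 0.00567 to 0.172 and 0.0117 to 0.349) and 0.185 for WSB/EiJ (range 0.0219 to 0.185).

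Daglb, the second 2-AG synthase, had its highest mean in PWK/PhJ, the strain with the lowest mean of Dagla. In Drd1+ neurons the PWK/PhJ mice had 39.1, 48.1, 50.9 and 58.1 CPM (mean 49.1 ± 7.85), against 21.0 to 58.4 (median 27.3) in the other 28. Of the others, 2 CAST/EiJ mice and 1 129S1/SvImJ mouse lay above the lowest PWK/PhJ mouse. The change was 0.76 ± 0.09 (1.69-fold higher; edgeR adjusted p = 1.57e-09, background 17%). CAST/EiJ mice, at 31.7, 35.6, 58.4 and 39.6 CPM, were higher too, by 0.43 ± 0.09 (edgeR adjusted p = 0.000253, background 16.8%). A/J mice, at 22.8, 21.0, 31.4 and 25.1 CPM, were lower by -0.38 ± 0.09 (edgeR adjusted p = 0.00288, background 6.66%), a call lost without batch 2 (edgeR adjusted p = 0.100; range over 10 alternatives 0.00125 to 0.100).

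In Drd2+ neurons Daglb was 30.5, 34.7, 43.5 and 44.5 CPM in the PWK/PhJ mice, against 18.0 to 40.4 (median 26.5) in the others, and PWK/PhJ was the highest strain in 4 of 4 batches. The change was 0.50 ± 0.10 (edgeR adjusted p = 0.000167, background 15.2%). CAST/EiJ was called there at 0.30 (edgeR adjusted p = 0.0370, background 14.8%), which was lost in 6 of 10 alternatives, among them leaving out batch 1, 2 or 4 (highest without batch 4, 0.217; range 0.00496 to 0.217). The calls of lower Daglb in C57BL/6 and NZO/HlLtJ Drd1+ neurons (-0.28 and -0.27, edgeR adjusted p = 0.049984 and 0.0488, backgrounds 5.93% and 8.74%) were lost in 9 and 6 of 10 alternatives, among them leaving out any 1 batch for C57BL/6 and batch 2, 3 or 4 for NZO/HlLtJ (ranges 0.049984 to 0.195 and 0.0430 to 0.205). Across the 32 mice the log2 levels of Dagla and Daglb in Drd1+ neurons had r = -0.54, the lowest of the 21 pairs of the 7 genes. The highest was Daglb with Napepld at 0.35. These mice share strains and batches, and no test was made.

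Mgll, the main 2-AG hydrolase, was highest in WSB/EiJ in both kinds of neuron. In Drd1+ neurons the WSB/EiJ mice had 103, 112, 126 and 164 CPM (mean 126 ± 27.2), and the other 28 ran from 60.2 to 137 with a median of 78.2. Of the others, 2 129S1/SvImJ mice and 1 NOD/ShiLtJ mouse reached the range of WSB/EiJ. The change was 0.64 ± 0.07 (1.56-fold higher; edgeR adjusted p = 1.15e-08, background 9.66%). In Drd2+ neurons they had 104, 124, 124 and 172 CPM, against 63.3 to 139 in the others. Mice of CAST/EiJ and of at least 1 other strain lay in their range. The change was 0.48 ± 0.10 (edgeR adjusted p = 0.000826, background 8.54%). Both changes were positive in 4 of 4 batches and held under the 10 alternatives. Fibroblast markers were also highest in these neurons of WSB/EiJ, as given above, and their part in the Mgll difference was not tested.

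A/J and NZO/HlLtJ were at the low end for Mgll. In Drd1+ neurons A/J had 60.2, 70.9, 62.1 and 78.0 CPM, and NZO/HlLtJ had 71.3, 60.4, 67.9 and 73.9. Their changes were -0.35 ± 0.08 and -0.34 ± 0.08 (edgeR adjusted p = 0.000896 and 0.00219, backgrounds 6.66% and 8.74%), held under the 10 alternatives. In Drd2+ neurons they were -0.40 ± 0.11 and -0.36 ± 0.11 (edgeR adjusted p = 0.00981 and 0.0217, backgrounds 6.14% and 7.72%), lost without batch 3 or 4 for A/J and without batch 2 or 3 or the batch term for NZO/HlLtJ (ranges 0.000164 to 0.0842 and 0.000626 to 0.1498). CAST/EiJ was higher in Drd2+ neurons, with 130.0, 119, 117 and 113 CPM (0.37 ± 0.10, edgeR adjusted p = 0.00812, background 14.8%). That call was lost without batch 2 (edgeR adjusted p = 0.0628; range 0.000217 to 0.0628).

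Smaller Mgll calls in Drd1+ neurons were lost in 3, 5 and 4 of 10 alternatives. They were 129S1/SvImJ at 0.28 (edgeR adjusted p = 0.0087, background 7.72%; 0.1498 without batch 4), C57BL/6 at -0.24 (0.0375, background 5.93%; 0.189 without batch 3) and PWK/PhJ at -0.23 (0.0267, background 17.3%; 0.131 with no replicate block). The batches whose removal ended them were 3 and 4, then 1, 2 and 3, then 1 and 3. Their ranges over the alternatives were 0.00263 to 0.1498, 0.0299 to 0.189 and 0.0203 to 0.131.

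In astrocytes, where Mgll is highest, CAST/EiJ mice had 472, 368, 284 and 380.4 CPM (mean 376 ± 77.0), against 127 to 416 (median 243) in the other 28. The value of 284 came from 12 counts. CAST/EiJ was higher by 0.62 ± 0.12 (edgeR adjusted p = 0.000115, background 4.75%), a call lost without batch 1 (edgeR adjusted p = 0.0585; range over 10 alternatives 1.74e-05 to 0.0585). PWK/PhJ mice had 159, 205, 127 and 187 CPM (mean 169.7 ± 34.3), the lowest strain in 3 of 4 batches, a change of -0.74 ± 0.15 (1.66-fold lower; edgeR adjusted p = 0.000134, background 4.17%) that held under the 10 alternatives. Over the 40 contrasts of the 5 genes tested in astrocytes 4 were called, against 4.95% of all contrasts, and 2 without batch 1.

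In endothelium the strain term of Mgll was called (F = 6.26, edgeR adjusted p = 0.00422) but lost without batch 1 (edgeR adjusted p = 0.1198; range over 9 alternatives 9.71e-06 to 0.1198). There 3 A/J mice had 303, 185 and 389 CPM, and the PWK/PhJ mice 116, 109.5, 69.9 and 48.0. A/J lay above all PWK/PhJ mice, but none of the 24 contrasts of single strains with the others was called by edgeR, against 0.604% of all contrasts. At an unadjusted p under 0.05 there were 7, and DESeq2 called 0. In oligodendrocytes, macrophages and the 3 other clusters tested the strain term of Mgll was not called (edgeR adjusted p from 0.392 to 0.668).

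Abhd6, the second 2-AG hydrolase, was lowest in PWK/PhJ projection neurons. In Drd1+ neurons the PWK/PhJ mice had 35.2, 40.5, 26.9 and 33.2 CPM (mean 34.0 ± 5.61), and the other 28 ran from 45.9 to 88.1 with a median of 60.4. All 4 PWK/PhJ mice lay below all others, which held for 1.54% of the genes tested. The change was -0.85 ± 0.09 (1.80-fold lower; edgeR adjusted p = 3.05e-10, background of genes lower in this strain 17.3%). In Drd2+ neurons they had 26.3, 29.5, 26.0 and 37.0 CPM, against 34.0 to 78.9, a change of -0.69 ± 0.12 (edgeR adjusted p = 1.07e-05, background 15.1%). Both held under the 10 alternatives and in 4 of 4 batches.

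CAST/EiJ had the highest mean of Abhd6 in 7 of the 9 tested clusters. Single strains were contrasted in 5 of the 7, and CAST/EiJ was called higher in 4, not in endothelium (83.1 ± 38.9 CPM). The second Drd1+ cluster (64.6 ± 11.7) and Nxph1+ interneurons (168 ± 22.0) had no such contrast, and in macrophages PWK/PhJ was highest. The strain term of Abhd6 was not called in endothelium, the second Drd1+ cluster or Nxph1+ interneurons (edgeR adjusted p = 0.664, 0.598 and 0.323). The same mice supply all these clusters, so the clusters are not independent of each other. In Drd2+ neurons the CAST/EiJ mice had 45.1, 56.1, 75.4 and 78.9 CPM, against 26.0 to 57.6, so that 2 lay above all others, and they were higher by 0.52 ± 0.10 (edgeR adjusted p = 0.000106, background 14.8%). In Drd1+ neurons they had 62.0, 59.2, 88.1 and 72.7 CPM, higher by 0.31 ± 0.08 (edgeR adjusted p = 0.00202, background 16.8%), a call lost without batch 3 (edgeR adjusted p = 0.0585; range 0.00142 to 0.0585). In astrocytes they had 222, 199, 142 and 217 CPM, against 49.0 to 177 (median 111). Of these, 3 CAST/EiJ mice lay above all others and the mouse of batch 3 did not, and the change was 0.98 ± 0.14 (1.98-fold higher; edgeR adjusted p = 1.13e-07, background 4.75%), held under the 10 alternatives.

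In oligodendrocytes the CAST/EiJ mice had 34.9, 47.8, 72.8 and 61.8 CPM of Abhd6 and were higher by 0.59 ± 0.19 (edgeR adjusted p = 0.0148, background 9.45%). The call was lost without batch 3 or 4 and had an edgeR adjusted p of 0.335 without batch 4 (range 0.00705 to 0.335). The 129S1/SvImJ mice stood apart there at the other end, with 18.2, 17.3, 20.5 and 18.2 CPM (mean 18.5 ± 1.33), and the other 28 ran from 21.3 to 72.8 with a median of 40.8. All 4 lay below all others, which held for 0.0991% of the genes tested. The change was -1.07 ± 0.21 (2.10-fold lower; edgeR adjusted p = 6.88e-05, background 2.31%), with 51 counts over the 4 mice, and it held under the 10 alternatives. In Drd1+ neurons the same mice had 56.1 to 59.0 CPM, in the middle of the range. NOD/ShiLtJ was called higher in Drd1+ neurons (0.30, edgeR adjusted p = 0.00808, background 9.4%) and lower in astrocytes (-0.59, edgeR adjusted p = 0.0244, background 1.21%), and both calls were lost without batch 1 or 2, the second also without the batch term (up to 0.0799 without batch 1, range 0.00682 to 0.0799, and 0.329 without batch 2, range 0.0191 to 0.329).

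**Figure D4:**
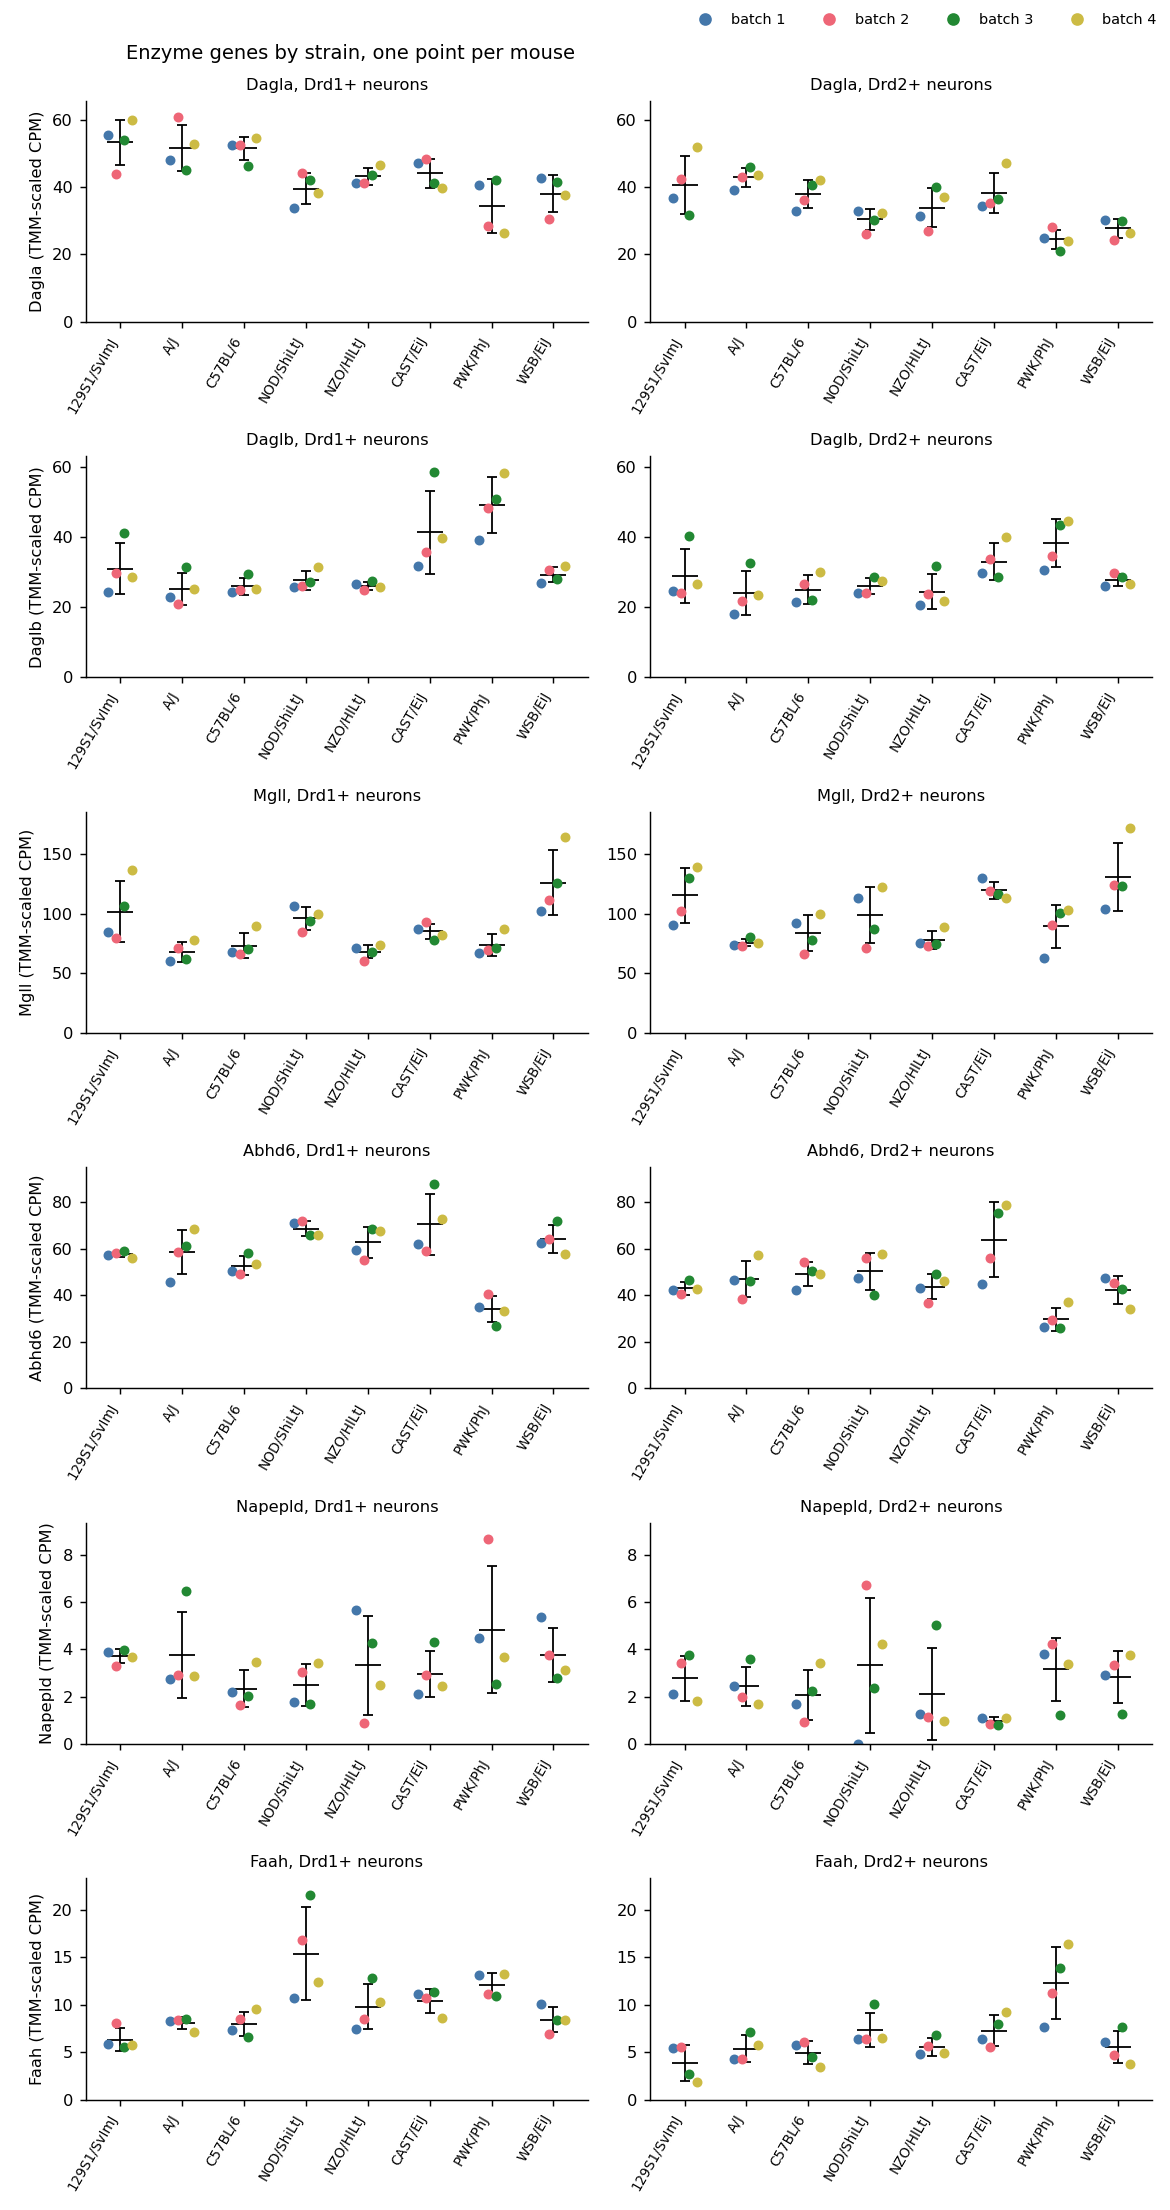
The 6 enzyme genes (TMM-scaled CPM, linear axes from 0) in Drd1+ (left) and Drd2+ neurons (right), 1 point per mouse coloured by batch, with strain mean (bar) and SD (whiskers, n = 4). In PWK/PhJ, Abhd6 and Dagla are low (34.0 and 34.4 CPM in Drd1+ neurons) and Daglb is high (49.1), and Mgll is highest in WSB/EiJ (126).

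Napepld, which makes anandamide from its phospholipid precursor, was low in projection neurons. The part of its low counts in the lack of a strain call there was not tested. Its strain means were 2.34 to 4.84 CPM in Drd1+ neurons and 0.961 to 3.33 in Drd2+ neurons, and the strain term was not called (edgeR adjusted p = 0.231 and 0.214). In Drd2+ neurons it was called only without batch 3 (edgeR adjusted p = 0.0492; range over 8 alternatives 0.0492 to 0.466). In oligodendrocytes it was called (F = 5.08, edgeR adjusted p = 0.000356). The 129S1/SvImJ mice had 109, 99.1, 95.4 and 78.6 CPM (mean 95.5 ± 12.7), against 33.2 to 103 (median 67.0) in the other 28. The mouse at 109 CPM lay above all others and the rest lay in the upper part of that range. 129S1/SvImJ was higher by 0.56 ± 0.13 (1.48-fold; edgeR adjusted p = 0.00109, background 4.98%).

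The CAST/EiJ mice had 33.2, 37.9, 88.4 and 42.4 CPM of Napepld in oligodendrocytes. Of these, 3 lay below all others and the mouse of batch 3 was high, with 17 counts. CAST/EiJ was lower by -0.69 ± 0.18 (edgeR adjusted p = 0.00208, background 7.58%). Leaving out batch 1 ended all 3 calls: the edgeR adjusted p was 0.0701 for the strain term, 0.0610 for 129S1/SvImJ and 0.1145 for CAST/EiJ (ranges over 10 alternatives 1.53e-05 to 0.0701, 0.000346 to 0.0610 and 0.000256 to 0.1145).

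Faah, the anandamide hydrolase, was far higher in A/J than elsewhere in oligodendrocytes. The A/J mice had 146, 125, 186 and 158 CPM, from 81, 228, 85 and 126 counts, and the other 28 ran from 6.08 to 73.9 with a median of 31.6. All 4 A/J mice lay above all others, which held for 0.176% of the genes tested in this cluster. The mean was 154 ± 25.2 against 32.9 ± 14.6 CPM, a change of 2.22 ± 0.13 (4.67-fold higher; edgeR adjusted p = 8.73e-28, background of genes higher in this strain 5.16%). In single batches it was 2.08 to 2.60, and its edgeR adjusted p was at most 4.35e-16 in the 10 alternatives, the value with no replicate block. NOD/ShiLtJ was next at 53.6 ± 16.1 CPM. WSB/EiJ (22.7 ± 9.24) was lower by -0.95 ± 0.22 (edgeR adjusted p = 0.00105, background 4.28%) and held under the alternatives. PWK/PhJ (mean 21.6 CPM) was lower by -0.69 ± 0.23 (edgeR adjusted p = 0.0248, background 8.32%), a call lost when any 1 batch was left out (up to 0.137 without batch 3; range 0.0180 to 0.137). The mean of the other strains in these contrasts includes A/J.

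In the Drd1+ and Drd2+ neurons of the same A/J mice Faah lay within the range of the others. It was 8.28, 8.36, 8.53 and 7.07 CPM in Drd1+ neurons (mean 8.06 ± 0.668, others 5.54 to 21.6) and 4.24 to 7.17 CPM in Drd2+ neurons (mean 5.37 ± 1.40, others 1.83 to 16.4). A/J had the highest mean in 3 clusters where Faah failed the filter on low counts, and its mice overlapped the others in each. The means were 12.7 ± 8.70 CPM in A/J astrocytes (18 counts) against 3.81 ± 4.05 in the other 28 mice, 28.7 ± 15.8 (22 counts) against 19.5 ± 11.9 in the second Drd1+ cluster, and 46.0 ± 34.1 (9 counts) against 20.7 ± 21.5 in Polydendrocyte/Oligodendrocyte. In the fit with no expression filter the A/J change in astrocytes was 1.62 ± 0.53 and was not called (edgeR adjusted p = 0.111). In Drd1+ neurons NOD/ShiLtJ was highest, with 10.7, 16.9, 21.6 and 12.4 CPM and 24 to 50 counts per mouse. Of these, 2 mice lay above all others, and NOD/ShiLtJ was higher by 0.76 ± 0.15 (1.69-fold; edgeR adjusted p = 0.000196, background 9.4%). 129S1/SvImJ was lowest, with 5.84, 8.12, 5.54 and 5.71 CPM, lower by -0.66 ± 0.17 (edgeR adjusted p = 0.00486, background 4.58%). Both held under the 10 alternatives.

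PWK/PhJ was highest for Faah in Drd2+ neurons, with 7.63, 11.3, 13.9 and 16.4 CPM, against 1.83 to 10.1 (median 5.71) in the other 28. Of the PWK/PhJ mice, 3 lay above all others, and the change was 1.12 ± 0.19 (2.17-fold higher; edgeR adjusted p = 9.58e-06, background 15.2%), held under the 10 alternatives. In Drd1+ neurons PWK/PhJ was higher by 0.42 (edgeR adjusted p = 0.0226, background 17%), lost without batch 1 or 4 (up to 0.145 without batch 4; range 0.0183 to 0.145). Thus PWK/PhJ was called higher for Faah in projection neurons and lower in oligodendrocytes. The call in oligodendrocytes was lost when any 1 batch was left out, and the difference between these cell types was not tested. Over the 48 contrasts of the 6 genes tested in oligodendrocytes 7 were called, against 10.5% of all contrasts.

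**Figure D5:**
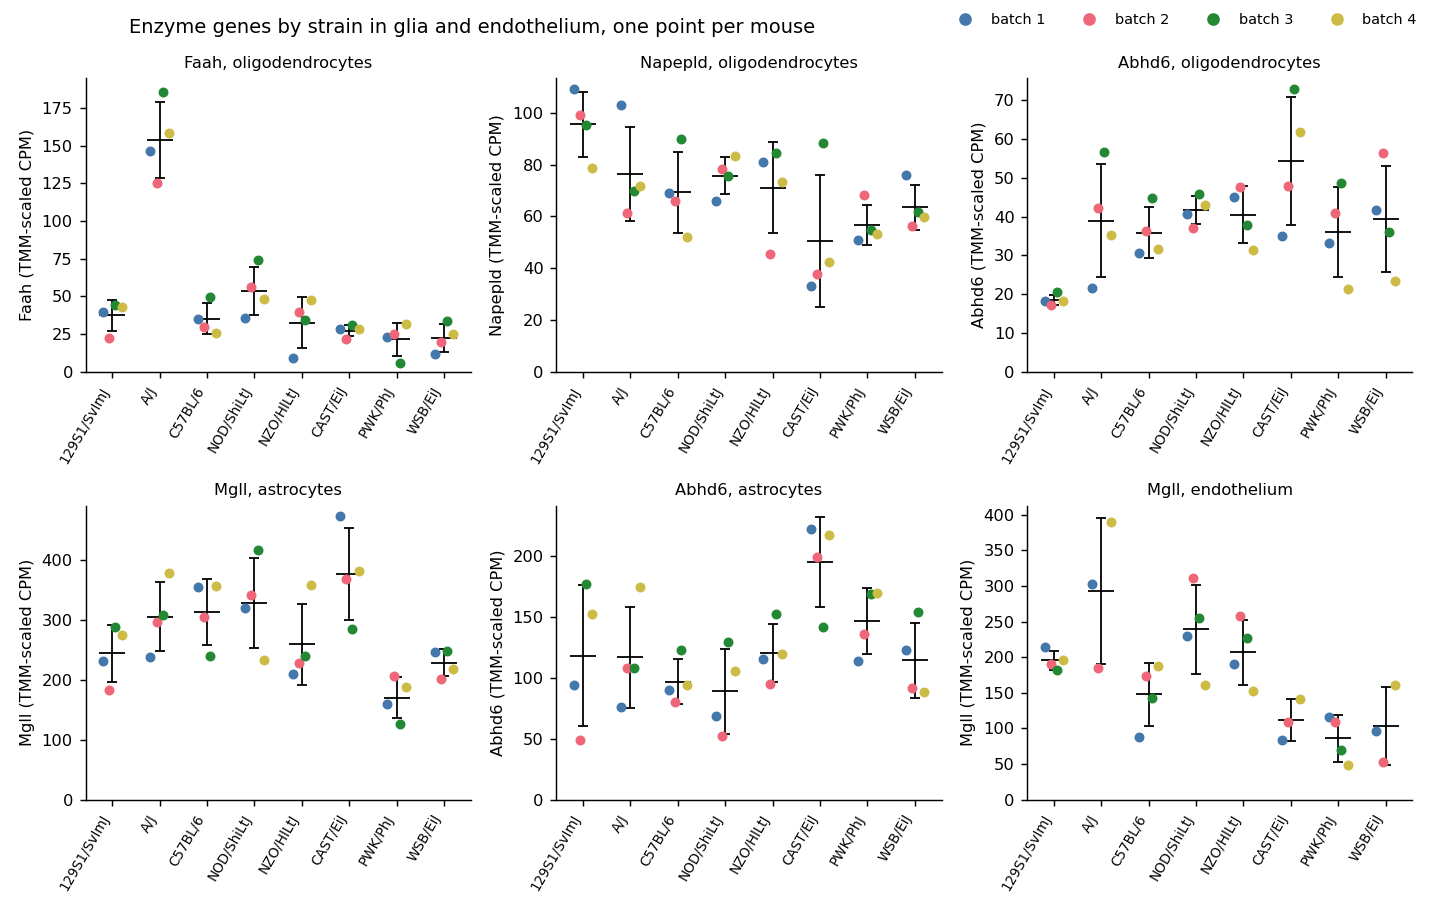
The 6 strain terms called outside the projection neurons: Faah, Napepld and Abhd6 in oligodendrocytes, Mgll and Abhd6 in astrocytes, and Mgll in endothelium (TMM-scaled CPM, linear axes from 0). Each point is a mouse coloured by batch, with strain mean (bar) and SD (whiskers, n = 4, or 3 for A/J, CAST/EiJ and WSB/EiJ endothelium). The A/J mice lie at 125 CPM or above for Faah and all other mice at 73.9 or below.

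Whether strain differences depended on the kind of projection neuron was tested by the interaction of strain and cluster in edgeR, with the mouse as a block over 64 libraries. Of all genes, 4.58% were called. Of the 7 genes, Mgll alone was called (F = 3.46, adjusted p = 0.0437). Its log2 ratio of Drd2+ to Drd1+ neurons was 0.49 ± 0.11 in CAST/EiJ, 0.35 to 0.57 in its 4 mice, against 0.01 ± 0.23 in NOD/ShiLtJ and 0.05 ± 0.07 in WSB/EiJ. The call was lost in 6 of 10 alternatives, among them DESeq2 (adjusted p 0.435), the fit without the robust prior (0.0759), and the fits without batch 1, 2 or 3 (0.223, 0.0878 and 0.255); the range was 0.0365 to 1. For the other 6 genes the adjusted p ran from 0.1205 (Abhd6) to 0.975 (Dagla), and Abhd6 was called only without batch 1 (edgeR adjusted p = 0.0183; range 0.0183 to 1).

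The endocannabinoid pathway was also represented by a list of 28 other genes. In Drd1+ neurons 22 passed the filter and 16 were called, and in Drd2+ neurons 20 passed and 10 were called, beside 61.7% and 55.9% of all genes. The median of the largest strain difference was 0.79 and 0.55 (log2) for the list and 0.65 and 0.64 for all genes. In Drd1+ neurons Plcb3, Ptgs2, Cnr2, Gpr119, Trpv1 and Ppara failed the filter, and Gdpd3 and Gpr55 also did in Drd2+ neurons. Cnr2, the gene of the CB2 receptor, had 18 counts over all Drd1+ nuclei. Of the list's tested genes, 9 of 16 were called in oligodendrocytes (34.8% of all genes), 5 of 16 in astrocytes (21.5%) and 5 of 8 in macrophages (24.8%). In the other 4 clusters it was 1 of 12 in the second Drd1+ cluster (17.3%), 1 of 10 in endothelium (3.23%), 1 of 4 in Polydendrocyte/Oligodendrocyte (1.24%) and 0 of 10 in Nxph1+ interneurons (1.53%).

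The 6 called genes with the largest F in Drd1+ neurons stand for several steps of the pathway. Pla2g4e, an enzyme that makes the N-acyl phospholipid precursor of anandamide, had the largest (F = 38.6), from 7.85 ± 1.26 CPM in A/J to 30.2 ± 4.82 in CAST/EiJ. It was also called in Drd2+ neurons (F = 17.4), from 8.08 in A/J to 27.8 in NZO/HlLtJ. Cnrip1, which encodes a protein that binds the tail of CB1, ran from 17.4 ± 2.14 CPM in PWK/PhJ to 52.1 ± 12.9 in CAST/EiJ (F = 20.2), and from 15.6 to 46.9 in the same strains in Drd2+ neurons. Plcb4, a phospholipase C that yields diacylglycerol, ran from 2.82 CPM in C57BL/6 to 9.60 in CAST/EiJ (F = 7.49).

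Gpr55 and Gpr18, genes of lipid receptors, ran from 0.417 to 3.51 CPM (CAST/EiJ to WSB/EiJ, F = 7.82, 165 counts) and from 1.11 to 4.31 (CAST/EiJ to 129S1/SvImJ, F = 5.28). Naaa, which hydrolyses other N-acylethanolamines, ran from 5.34 in PWK/PhJ to 12.5 CPM in NZO/HlLtJ (F = 4.45). It was not called in Drd2+ neurons (edgeR adjusted p = 0.0506).

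The genes whose levels were most like those of each member were named by a fixed rule. Over the 32 mice in Drd1+ neurons, among 9050 other genes of at least 10 CPM on average, Cnr1 was closest to Hs6st3 (r = 0.88), Kctd17 (0.84) and Me2 (0.83). Daglb was closest to Psma7 (0.88) and Gm31356 (0.85), and Abhd6 to Gm14326 (0.87), Zfp605 (0.86) and Tmem126b (0.85). The closest to Dagla were Frmd4b (0.75) and Tpm3 (0.74), to Mgll Mns1 (0.77), Morn2 (0.75) and S100pbp (0.72), to Faah Ralyl (0.77), Mettl6 (0.70) and Pdyn (0.69), and to Napepld Dclre1c (0.57), Ankrd26 (0.56) and Gm12592 (0.55). The mice share strains, batches and library depth.

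Over the 14 clusters of at least 200 nuclei, among 12451 genes, Cnr1 was closest to Sv2c (0.96), D430036J16Rik (0.96) and Kcnip2 (0.95). Daglb was closest to Syk (0.98), a kinase of immune cells, and to Ufsp2 (0.96) and Pan3 (0.95). Faah was closest to Gm26673 (0.92), Gm20319 (0.91) and Gm13963 (0.91), Dagla to Iqsec2 (0.93), Slc23a2 (0.90) and Lyst (0.90), and Napepld to Ccdc167 (0.90), Dnajc21 (0.90) and Rusc2 (0.89). Abhd6 was closest to Stambpl1 (0.87), Arrb1 (0.85) and Hivep3 (0.84), and Mgll to Sumf2 (0.84), Nfat5 (0.82) and Cd38 (0.81). These values describe the clusters, which were made from the same expression values.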

How the data were processed

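Nuclear RNA counts of 32 mice were analysed. The deposited count matrices hold whole-number UMI counts per gene and barcode, with no normalization. The submitters' processing notes list bcl2fastq 2.20.0.422, Cell Ranger ARC 2.0.0 and the builds mm10 and GRCm38, and the annotation used for counting and the peak caller are not given in the sources used here. The authors deposited a table of categories (unit other) that gives for each barcode the strain call, the quality filter, the doublet call and the cluster, and its 55672 annotated nuclei, all of them called singlets, were used with no further filter. The deposited list of accessible regions gives positions (also unit other). The matrix of accessibility was not analysed here.

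Counts were summed per mouse and cluster, leaving out libraries of fewer than 10 nuclei. Clusters in which each strain kept at least 3 mice were tested. In edgeR 4.0.16 (R 4.3.3) genes were filtered with filterByExpr by strain, scaled by TMM and fitted by the quasi-likelihood method (robust) on strain plus batch, since a batch holds 1 mouse of every strain and so pairs the mice per the labels. Adjusted p-values are Benjamini-Hochberg over all genes of a cluster and contrast. In the interaction fit the mouse was the block. Alternatives were RLE size factors, no expression filter, DESeq2 1.42.0, no replicate block, at least 20 nuclei, no robust prior, and leaving out each batch. Contrasts in oligodendrocytes, astrocytes and endothelium were added after the data had been seen, as were the neighbours of Faah.

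CPM per cluster use plain totals. Within-batch values and correlations with position genes use log2(CPM + 1) on TMM-scaled totals. Likeness over mice used log2 CPM with a prior count of 2, and likeness over clusters used log2(CPM + 1). Thinned shares are the expected share of nuclei with a UMI after drawing 1000 UMIs. Correlations with position genes used 100000 permutations, two-sided (Python 3.11.15, numpy 2.4.6). P-values of the strain terms and contrasts rest on the spread between mice of a strain, and 4 mice per strain limit the precision. Those of the interaction rest on the spread of the difference between the clusters within mice. The permutation p-values rest on shuffling all mice, regardless of strain and batch. The fits were also run on simulated counts with known changes. That outcome is not reported here, and no result above rests on it. The 7 genes, the pathway and position lists and the tests were chosen with earlier results of these data known. All 7 genes are named in every comparison. Of the pathway list, the 6 called genes with the largest F in Drd1+ neurons are named, and for likeness the 3 genes with the highest r, of which some are not reported here. The RefSeq promoter table used here held 6 of the 7 genes, all but Dagla.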

Additional observations from a re-analysis of the deposited data

Results flagged for a closer look

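In 141 groups of 4 mice of 1 strain, gene and cluster, 6 had 1 mouse far from the other 3 by Dixon's 95% test, which chance gives in about 1 in 20 groups. Daglb in C57BL/6 Drd1+ neurons was 29.5 CPM in batch 3 against 24.3 to 25.1. Daglb in 129S1/SvImJ Drd2+ neurons was 40.4 CPM in batch 3 against 23.9 to 26.6. Faah in 129S1/SvImJ Drd1+ neurons was 8.12 CPM in batch 2 (27 counts) against 5.54 to 5.84. Faah in NOD/ShiLtJ Drd2+ neurons was 10.1 CPM in batch 3 (17 counts) against 6.37 to 6.47. Mgll in NZO/HlLtJ Drd2+ neurons was 89.1 CPM in batch 4 against 72.7 to 75.4. Napepld in CAST/EiJ oligodendrocytes was 88.4 CPM in batch 3 (17 counts) against 33.2 to 42.4. Of the 6, 4 were mice of batch 3, the shallowest batch, and the part of depth was not tested.

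The strain effect on Mgll differed between Drd2+ and Drd1+ neurons by the interaction test in edgeR (adjusted p = 0.0437, range over 10 alternatives 0.0365 to 1), with a log2 ratio of Drd2+ to Drd1+ neurons of 0.49 ± 0.11 in CAST/EiJ against strain means of 0.01 to 0.25 in the other 7.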

How the results depend on the processing

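Over the alternatives, no result reversed. The 40 strain terms of single genes gave 390 comparisons, of which 382 stayed on their side of the threshold, 5 lost the call and 3 gained it. Of 480 comparisons of the 48 called contrasts, 77 lost the call. Of 70 comparisons of the 7 interaction terms, 6 lost it and 1 gained it. With no expression filter, edgeR called 1 gene in macrophages (0 with it) and 2 in endothelium (1 with it), and 1 contrast in endothelium (0 with it). Leaving out 1 batch gave 0 to 1 genes in the second Drd1+ cluster (0 in the full data, 1 without batch 4), 0 to 1 in endothelium (0 without batch 1), 9 to 15 contrasts in Drd2+ neurons (15 in the full data), 15 to 16 in Drd1+ neurons (22), 5 to 6 in oligodendrocytes (7) and 2 to 5 in astrocytes (4). For the interaction, 0 genes were called with DESeq2, 0 with no robust prior, and 0 to 1 when a batch was left out. The cause was not tested, and leaving out a batch also leaves fewer mice. Thinned to 500 UMIs, 12.0% of Drd1+ nuclei had a Cnr1 UMI, against 21.3% at 1000 UMIs, as fewer UMIs were drawn.

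The batch pairs the mice. With no replicate block (strain without batch, and for the interaction without the mouse), the interaction of Mgll had an adjusted p of 1 and 0 of the 7 genes were called, while the Faah strain term in oligodendrocytes kept its call (adjusted p = 4.09e-14, range over 10 alternatives 4.88e-72 to 4.09e-14). The fits with at least 20 nuclei were not run for endothelium and Polydendrocyte/Oligodendrocyte, where too few mice remained. Few counts were seen for Napepld in projection neurons (355 and 206 over all mice) and for Faah in astrocytes (50), which limits the precision there.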

Other observations

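The genes around Faah were looked at in oligodendrocytes after the A/J level of Faah had been seen. Only protein-coding genes were taken. Of 11 such neighbours within 150 kb, 5 passed the filter, and none of them was called in A/J by edgeR. Of all genes tested in oligodendrocytes, 5.16% were called higher in A/J, and at such a share no call among 5 genes is usual. Mknk1 was at 18.1 ± 6.31 CPM in A/J and 18.0 ± 6.43 in the other strains (log2 fold change 0.05, adjusted p = 0.959). Uqcrh was at 268 ± 52.1 and 259 ± 73.5 CPM, Lrrc41 at 17.1 and 18.1, and Pomgnt1 at 31.5 and 33.0. Lurap1 was at 23.2 ± 10.8 and 27.99 ± 13.0 CPM (-0.11, adjusted p = 0.865), although its strain term was called (edgeR adjusted p = 4.75e-06). Kncn, 6430628N08Rik, Dmbx1, Nsun4, Rad54l and Tspan1 failed the filter.

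Napepld in macrophages failed the filter, with 94 counts over all mice. Its mean was 80.7 ± 28.2 CPM in PWK/PhJ (34 counts) and 7.01 ± 8.48 in 129S1/SvImJ (3 counts). The 4 PWK/PhJ mice ran from 55.4 to 105 CPM and overlapped the other 28 (0 to 86.4). In the fit with no expression filter its strain term was called by edgeR (F = 5.43, adjusted p = 0.000104). That fit gave Napepld alone of the 7 genes in macrophages.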
